A study of Homo sapiens with 8 samples.

Results

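The genes described here are 8 genes of anion channel families, the LRRC8 genes LRRC8A, LRRC8B, LRRC8C, LRRC8D and LRRC8E and the chloride intracellular channel genes CLIC1, CLIC3 and CLIC4, out of 12939 genes with values. They were taken by name, and they were chosen by their measured values in these same libraries, because LRRC8B was higher and CLIC3 was lower in both knockdowns. For that reason the differences from scramble shRNA below are descriptions that support nothing, although the model was fitted to all genes in every contrast. For these 8 genes p-values are given only for the contrast of the knockdowns with each other. All 8 had values in every library. RNA was measured in cancer stem cells (CSCs) of MDA-MB-231, a triple-negative breast cancer cell line. The line carried green fluorescent protein (GFP) driven by the Oct4a regulatory region and a red fluorescent (RFP) vector with an shRNA, and cells high in both colours were sorted, so CSC here means high reporter signal in 1 line. The groups were scramble shRNA (3 libraries, the control), CDH2 shRNA against N-cadherin (3 libraries), for which the most efficient of several constructs was used, and Cx43 shRNA against connexin 43, the gap junction protein (2 libraries). All groups were grown in the same serum-containing medium, sorted and left overnight before the RNA was taken. The labels do not say that the libraries of a group came from separate cultures, so the p-values measure the spread between these libraries, which may be technical. In bulk libraries, fewer cells of a type and less RNA per cell cannot be told apart.

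LRRC8 proteins form the volume-regulated anion channel, which opens when a cell swells and lets chloride and small organic osmolytes leave. LRRC8A is the subunit that every working channel needs, and LRRC8B to LRRC8E join it and set what passes, with LRRC8D known for taurine and platinum drug transport. CLIC proteins are relatives of glutathione transferases that exist in soluble and membrane-bound forms and work at intracellular membranes and at the actin cytoskeleton.

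Values are log2(CPM + 1), where CPM is the read count scaled to a fixed library total, as the authors deposited them, and differences are on that scale, where the change of a gene with a low level comes out too small. The libraries were alike over all genes (Pearson r from 0.987 to 0.997 within groups and from 0.959 to 0.990 between groups), and their read depth is unknown. CDH2 and GJA1, the targets of the shRNAs, are not analysed here, and their knockdown was not checked in these values. The paper reports a check of the knockdown at the protein level, by Western blot of the transfected cells. Of the markers of the line, 7 of 7 had values, summing to 2552 to 2597 CPM with scramble shRNA, 2746 to 2985 with CDH2 shRNA and 2700 to 2913 with Cx43 shRNA. Of the epithelial and receptor markers 4 of 8 had values (700 to 870, 576 to 713 and 722 to 727 CPM in the same order), with CDH1, ESR1, PGR and GATA3 among those without values here. Of the blood and vessel markers 1 of 8 had values, PECAM1 (3.48 to 4.67, 2.18 to 2.85 and 2.81 to 3.49 CPM), and of the stromal markers 2 of 7, COL1A1 and PDGFRB (53.7 to 66.3, 40.4 to 52.6 and 29.6 to 40.2 CPM). The sums of the line's own markers were higher, and those of the stromal markers lower, in every knockdown library than in every scramble library. The single genes behind these sums did not all move together. Of the 7 line markers 5 were higher and 2 lower with CDH2 shRNA, and 4 higher and 3 lower with Cx43 shRNA. Of the 2 stromal markers 1 was lower (-0.63) and 1 higher (0.16) with CDH2 shRNA, and 2 were lower with Cx43 shRNA. PECAM1 was lower in every CDH2 library than in every scramble library, as were 24.8% of all genes. The part of these markers in the results below was not tested.

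In the annotation (GENCODE v44, hg38), LRRC8B (chr1:89524829-89597861), LRRC8C (chr1:89633072-89769903) and LRRC8D (chr1:89821014-89936611) stand one after the other on the plus strand of chromosome 1, with gaps of 35.2 and 51.1 kb. LRRC8A (chr9:128882133-128918039) and LRRC8E (chr19:7888505-7902021) lie elsewhere, also on the plus strand. CLIC3 (chr9:136994608-136996568) and CLIC1 (chr6:31730581-31739763) are on the minus strand, and CLIC4 (chr1:24745382-24844321) is on the plus strand. The 250 bases before the start of the 3 clustered LRRC8 genes and of CLIC3 are shown because they hold the starts of the genes with the largest differences and of the less changed neighbour of LRRC8B and LRRC8C. They are from RefSeq (GRCh38.p14), read 5′ to 3′ on the strand of the gene. Capitals mark matches, on either strand, to the CCAAT box (letters CCAAT), the GC box (letters GGGCGG), the TATA box (letters TATAAA), the AP-1 motif (letters TGANTCA), the cAMP response element (letters TGACGTCA) and the E-box (letters CAGGTG). The windows are chr1:89524579-89524828 (plus strand) for LRRC8B, chr1:89632870-89633119 (plus strand) for LRRC8C, chr1:89820782-89821031 (plus strand) for the first of the LRRC8D starts, and chr9:136996569-136996818 (minus strand) for CLIC3.
LRRC8B: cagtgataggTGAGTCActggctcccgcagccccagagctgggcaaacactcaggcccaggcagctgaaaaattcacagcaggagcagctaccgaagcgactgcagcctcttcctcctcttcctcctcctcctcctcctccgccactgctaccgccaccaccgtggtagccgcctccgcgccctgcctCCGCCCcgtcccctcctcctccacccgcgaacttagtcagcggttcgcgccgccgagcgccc
LRRC8C: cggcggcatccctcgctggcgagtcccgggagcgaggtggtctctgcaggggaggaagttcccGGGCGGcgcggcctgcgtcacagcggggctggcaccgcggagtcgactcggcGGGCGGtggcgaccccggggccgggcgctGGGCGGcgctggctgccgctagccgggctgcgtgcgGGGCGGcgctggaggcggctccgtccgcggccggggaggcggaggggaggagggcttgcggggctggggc
LRRC8D: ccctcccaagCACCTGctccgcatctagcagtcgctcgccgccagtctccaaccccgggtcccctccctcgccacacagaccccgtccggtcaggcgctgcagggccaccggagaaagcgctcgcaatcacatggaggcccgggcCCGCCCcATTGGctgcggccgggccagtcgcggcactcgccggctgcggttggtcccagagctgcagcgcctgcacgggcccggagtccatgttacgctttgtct
CLIC3: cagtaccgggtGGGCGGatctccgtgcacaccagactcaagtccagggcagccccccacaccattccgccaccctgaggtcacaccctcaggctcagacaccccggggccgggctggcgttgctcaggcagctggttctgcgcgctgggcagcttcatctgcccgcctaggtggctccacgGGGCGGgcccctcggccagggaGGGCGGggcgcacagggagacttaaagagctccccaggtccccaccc

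The windows were rich in G and C, with 66.8% in LRRC8B, 80.8% in LRRC8C, 70.8% in LRRC8D and 70.4% in CLIC3, against a median of 58.0% (quartiles 46.4% and 68.0%) over 35116 promoters of the same length. CpG dinucleotides numbered 19, 37, 25 and 15 in the same order, with a median of 11.0 over all promoters. The GC box was found in each of the 4 windows, with 1 match in LRRC8B, 4 in LRRC8C, 1 in LRRC8D and 3 in CLIC3, and 42.6% of all promoters held it. The AP-1 motif (6.57% of promoters) was found before LRRC8B alone among the 4. The CCAAT box (32% of promoters) and the E-box (17.5%) were found before LRRC8D alone among them. The TATA box (10.7%) and the cAMP response element (1.65%) were in none of the 4 windows. No match overlapped another in these windows. Among the windows of these genes that are not shown, that of CLIC1 held the AP-1 motif and the TATA box. A window of LRRC8A held the cAMP response element and the E-box. The window of the other LRRC8D start held the E-box and no CCAAT box. A match describes the letters and says nothing of whether a factor binds there.

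**Figure D1:**
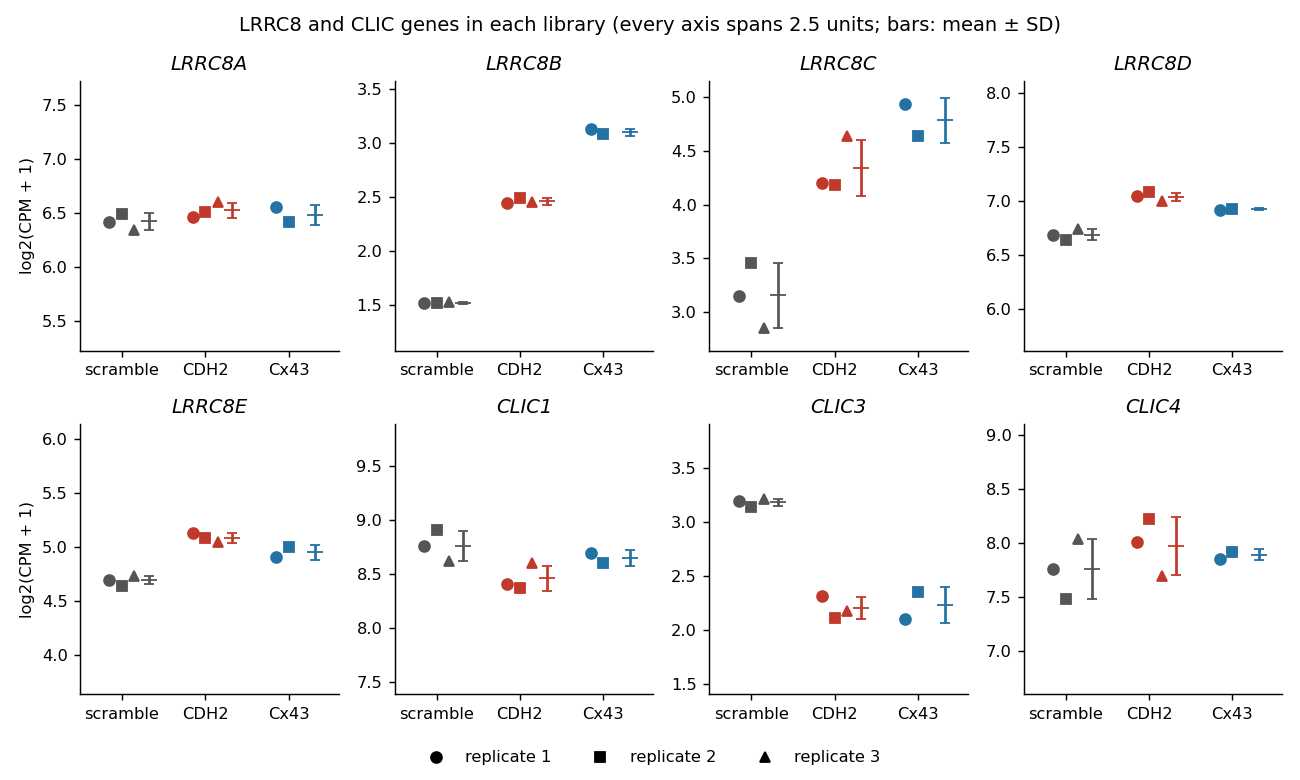
log2(CPM + 1) of the 8 genes in each library (circle, square and triangle: replicate numbers 1, 2 and 3), by shRNA, with the mean and SD of each group at the right of its points. Every axis spans 2.5 units, so distances compare between panels. LRRC8B and LRRC8C lie higher and CLIC3 lies lower in every knockdown library than in every scramble library, while LRRC8A and CLIC4 overlap.

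LRRC8A, the obligatory subunit, had the smallest differences from scramble shRNA among the LRRC8 genes. It measured 6.41, 6.49 and 6.34 with scramble shRNA, 6.46, 6.51 and 6.60 with CDH2 shRNA, and 6.55 and 6.41 with Cx43 shRNA. The 3 groups overlapped, and the difference from scramble was 0.11 (SE 0.09) with CDH2 shRNA and 0.06 (SE 0.11) with Cx43 shRNA.

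LRRC8B, a subunit also linked to calcium leak from the endoplasmic reticulum, was among the genes used for the choice. It measured 1.52, 1.52 and 1.53 with scramble shRNA, 2.44, 2.49 and 2.45 with CDH2 shRNA, and 3.13 and 3.08 with Cx43 shRNA. The groups formed separate steps, with SDs of 0.01, 0.03 and 0.03. The authors had removed a batch effect from these values, so the SDs may understate the spread between libraries. In CPM these are means of 1.87, 4.5 and 7.59, so that LRRC8B was 2.41 times the scramble level with CDH2 shRNA and 4.05 times with Cx43 shRNA, from a low level. The scramble values of LRRC8B lay below the highest library value of every gene with values. A gene as low as this in all libraries is absent here, so LRRC8B has values only through its higher knockdown libraries. On the log2 scale the differences were 0.94 (SE 0.07) and 1.58 (SE 0.08), and with a pseudocount of 0.1 in place of 1 they were 1.22 and 1.96. Within each replicate number the library with CDH2 shRNA was 0.92, 0.98 and 0.92 above its scramble library, and that with Cx43 shRNA 1.61 and 1.56.

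LRRC8C, a subunit first known from fat cells, was higher in all 5 knockdown libraries too, with more spread. It measured 3.15, 3.46 and 2.86 with scramble shRNA, 4.20, 4.18 and 4.64 with CDH2 shRNA, and 4.93 and 4.64 with Cx43 shRNA. The CDH2 and Cx43 libraries met at 4.64, while the scramble libraries lay below all others. The means were 8.06, 19.4 and 26.7 CPM, which is 2.41 and 3.31 times the scramble level, and the log2 differences were 1.18 (SE 0.21) and 1.62 (SE 0.25). Within replicate numbers they ranged from 0.71 to 1.78 with CDH2 shRNA and were 1.78 and 1.17 with Cx43 shRNA.

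LRRC8D, the subunit tied to taurine and platinum drug uptake, differed less. It measured 6.69, 6.64 and 6.74 with scramble shRNA, 7.05, 7.09 and 7.00 with CDH2 shRNA, and 6.92 and 6.93 with Cx43 shRNA. Every knockdown library lay above every scramble library, by 0.35 (SE 0.08) and 0.24 (SE 0.09) on average. LRRC8E, which joins LRRC8A in channels that respond to oxidation, followed the same pattern. It measured 4.69, 4.64 and 4.73 with scramble shRNA, 5.13, 5.08 and 5.04 with CDH2 shRNA, and 4.90 and 5.00 with Cx43 shRNA, with differences of 0.39 (SE 0.08) and 0.26 (SE 0.09).

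CLIC3, a CLIC protein known from endosomal recycling of integrins and from secretion by tumour and stromal cells, was the other gene used for the choice. It measured 3.19, 3.14 and 3.21 with scramble shRNA, 2.31, 2.11 and 2.17 with CDH2 shRNA, and 2.10 and 2.35 with Cx43 shRNA. The knockdown groups overlapped each other and lay below all scramble libraries. The means of 8.05, 3.59 and 3.7 CPM give ratios of 0.446 and 0.459 to scramble, and the log2 differences were -0.98 (SE 0.10) and -0.95 (SE 0.12).

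CLIC1, an abundant CLIC protein linked to chloride currents at the plasma membrane of tumour cells, measured 8.76, 8.91 and 8.62 with scramble shRNA, 8.41, 8.37 and 8.60 with CDH2 shRNA, and 8.70 and 8.60 with Cx43 shRNA. The CDH2 libraries lay below the scramble libraries, the nearest by a small margin, while the Cx43 libraries overlapped them, and the differences were -0.30 (SE 0.12) and -0.11 (SE 0.14). CLIC4, which moves between the cytoplasm, the nucleus and actin-rich membranes, overlapped in all groups. It measured 7.76, 7.48 and 8.04 with scramble shRNA, 8.01, 8.22 and 7.69 with CDH2 shRNA, and 7.85 and 7.92 with Cx43 shRNA, with differences of 0.22 (SE 0.20) and 0.13 (SE 0.23). In each group the library with the highest CLIC4 had the lowest CLIC1. The log2 ratio of CLIC1 to CLIC4 per kb was 2.21, 2.64 and 1.79 with scramble shRNA, 1.60, 1.35 and 2.12 with CDH2 shRNA, and 2.06 and 1.88 with Cx43 shRNA. In the deposited values, deviations cancel within each replicate number, so the libraries of a number are not independent in this pattern. No source used here says that the replicate numbers are the sequencing replicates the authors corrected for.

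The counts of these genes stand beside the share of all genes as follows. With CDH2 shRNA, 4 of the 8 (LRRC8B, LRRC8C, LRRC8D and LRRC8E) lay above all scramble libraries, as did 27.1% of all genes, and 2 (CLIC1 and CLIC3) lay below them, as did 24.8%. The same 4 lay above with Cx43 shRNA, where the share of all genes was 31.4%, and CLIC3 lay below, where it was 21.4%. The threshold of the study's methods is given here for description only (limma adjusted p under 0.05 and a difference of at least 0.73 for CDH2 shRNA or 0.58 for Cx43 shRNA). LRRC8B and LRRC8C lay past it on the higher side with CDH2 shRNA (0.866% of all genes) and CLIC3 on the lower side (1.2%). With Cx43 shRNA, LRRC8B lay past it on the higher side (0.402%) and CLIC3 on the lower side (0.781%). These contrasts chose the genes, so these counts are no test of them and nothing is read from them, and both contrasts share the same scramble libraries.

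**Figure D2:**
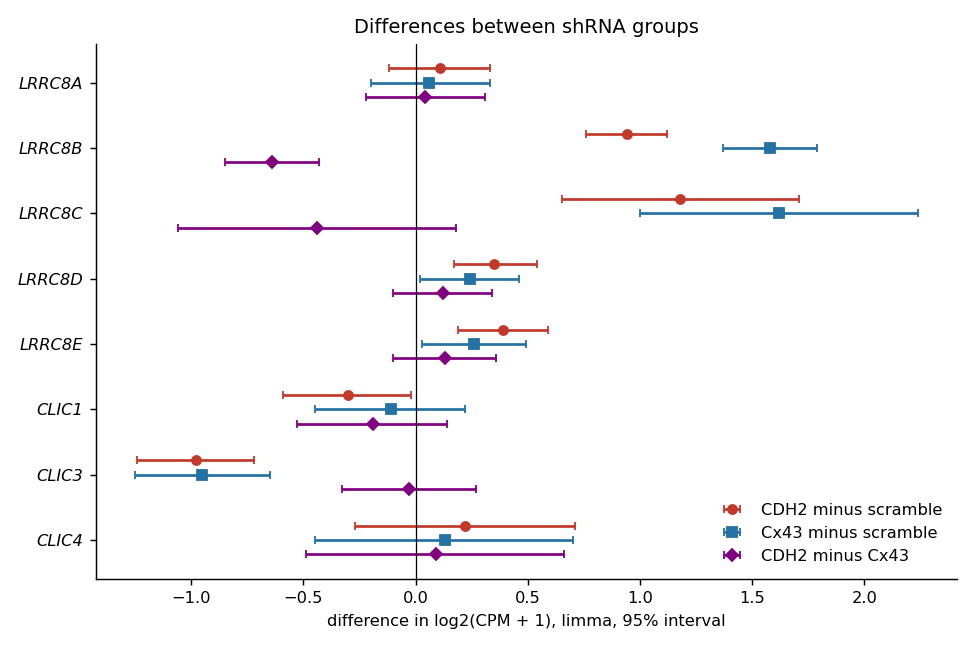
Differences in log2(CPM + 1) with 95% intervals from limma for the 8 genes, as CDH2 minus scramble shRNA (circles), Cx43 minus scramble shRNA (squares) and CDH2 minus Cx43 shRNA (diamonds). For LRRC8B the interval of the direct difference, from -0.85 to -0.43, lies below 0, and for the other 7 genes it includes 0.

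The direct contrast of CDH2 with Cx43 shRNA was not used for the choice, and it asks whether the knockdowns differ in these genes. LRRC8B was lower with CDH2 than with Cx43 shRNA in every library, by a log2 difference of -0.64 (SE 0.08, 95% interval -0.85 to -0.43). Its unadjusted limma p was 0.000311 and its adjusted p 0.115, so the difference did not pass the threshold over all genes. The interval and these p-values rest on the spread left after the authors' batch correction. For LRRC8C the difference was -0.44 (95% interval -1.06 to 0.18, limma adjusted p 0.372), and the libraries overlapped at their edge. LRRC8D and LRRC8E were 0.12 (-0.10 to 0.34, limma adjusted p 0.502) and 0.13 (-0.10 to 0.36, limma adjusted p 0.463) higher with CDH2 shRNA. LRRC8A differed by 0.04 (-0.22 to 0.31, limma adjusted p 0.84). CLIC3 differed by -0.03 (-0.33 to 0.27, limma adjusted p 0.909), CLIC4 by 0.09 (-0.49 to 0.66, limma adjusted p 0.853) and CLIC1 by -0.19 (-0.53 to 0.14, limma adjusted p 0.469). By limma, 0 of the 8 had an adjusted p under 0.05, as did 0% of all genes, and 1 of the 8, LRRC8B, had an unadjusted p under 0.05, as did 20% of all genes. LRRC8D and LRRC8E lay above in every CDH2 library (21.8% of all genes), and LRRC8B and CLIC1 lay below (29.1%). The adjusted p of LRRC8B ranged from 0.00173 to 0.678 over the alternatives. It was 0.00173 with no replicate block, 0.0412 with only the groups compared, 0.0129 without scramble replicate 2 and 0.00592 without scramble replicate 3 or CDH2 replicate 3. That of LRRC8C ranged from 0.0165 (without scramble replicate 3 or CDH2 replicate 3) to 0.824 and was 0.0473 with only the groups compared.

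Between genes, levels were compared as CPM per kb of exon. Among the LRRC8 genes the order was the same in all 8 libraries, and no neighbours in it overlapped within a group. With scramble shRNA the levels were 21.1 ± 0.668 for LRRC8D, 16.2 ± 0.88 for LRRC8A, 5.72 ± 0.184 for LRRC8E, 0.688 ± 0.162 for LRRC8C and 0.227 ± 0.00198 for LRRC8B (SD, n = 3). With CDH2 shRNA LRRC8D stood at 27, LRRC8A at 17.5, LRRC8E at 7.58, LRRC8C between 1.46 and 2.04 and LRRC8B at 0.545. With Cx43 shRNA the means were 24.9, 17, 6.89, 2.27 and 0.918 in the same order. CLIC1 stood far above CLIC4 and CLIC3, at 224 ± 22, 48.8 ± 9.56 and 8.31 ± 0.223 with scramble shRNA (SD, n = 3). CLIC3 stood above LRRC8E in the scramble libraries and below it in every knockdown library, where its mean was 3.71 (CDH2 shRNA) and 3.81 (Cx43 shRNA).

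The LRRC8 family summed to 43.8, 44.1 and 43.8 CPM per kb with scramble shRNA, 53.6, 54.7 and 54.5 with CDH2 shRNA, and 52.7 and 51.2 with Cx43 shRNA. Of the 5 genes, LRRC8D, the most abundant, had the largest difference in level per kb in both knockdowns. LRRC8B and LRRC8C together remained a small part of the family. The share of LRRC8B was 0.516%, 0.509% and 0.522% with scramble shRNA, 0.997%, 1.02% and 0.992% with CDH2 shRNA, and 1.77% and 1.76% with Cx43 shRNA. That of LRRC8C was 1.53%, 1.94% and 1.22%, then 2.76%, 2.67% and 3.74%, then 4.77% and 3.98%. LRRC8A took 36.9% ± 1.84 of the family with scramble shRNA (SD, n = 3), 32.2% ± 1.39 with CDH2 shRNA (SD, n = 3) and 32.6% ± 1.51 with Cx43 shRNA (SD, n = 2). These are shares of transcript level and not of channel protein, and they were not tested.

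**Figure D3:**
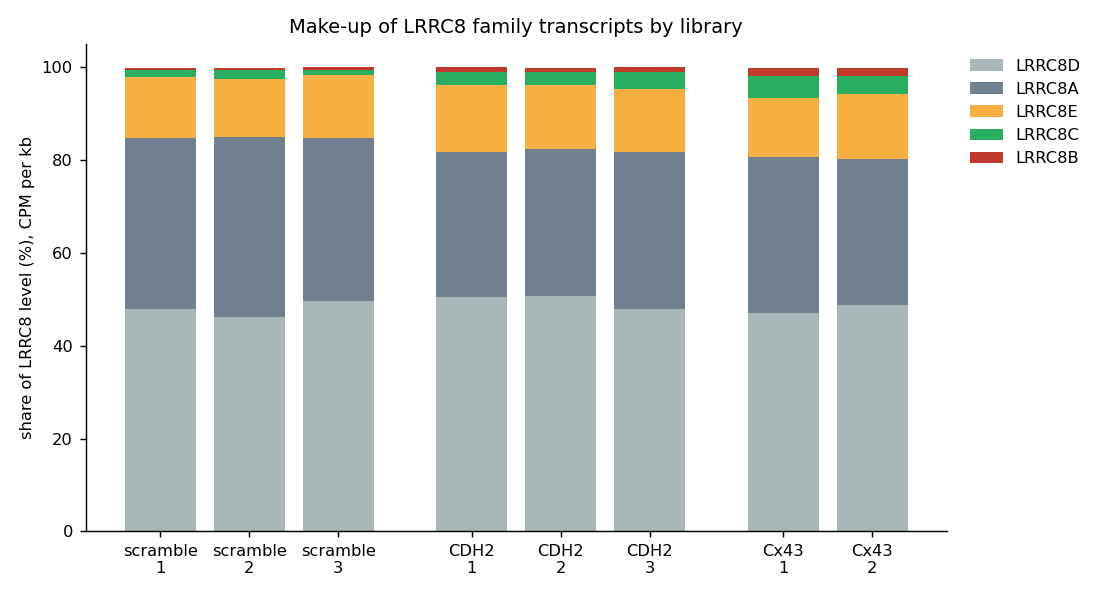
Share of each LRRC8 gene in the summed CPM per kb of the family, in percent, for each library. LRRC8D and LRRC8A make up most of every bar, and the shares of LRRC8B and LRRC8C, at the top, are larger in the 5 knockdown libraries than in the 3 scramble libraries.

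The genes beside LRRC8B, LRRC8C and LRRC8D were looked at for the same pattern. GBP5, an interferon-induced guanylate binding protein gene on the minus strand, starts 252.0 kb before LRRC8B. It measured 1.86, 1.75 and 2.01 with scramble shRNA, 2.44, 2.75 and 2.39 with CDH2 shRNA, and 2.24 and 2.04 with Cx43 shRNA. The difference was 0.66 with CDH2 shRNA (SE 0.14, limma adjusted p 0.0383, below the 0.73 that the threshold asks for) and 0.27 with Cx43 shRNA (SE 0.16, limma adjusted p 0.391). With CDH2 shRNA it passed the threshold with a pseudocount of 0.1 (0.82, limma adjusted p 0.0386). It also passed without scramble replicate 3 or CDH2 replicate 3 (0.79, limma adjusted p 0.00117). ZNF326, a zinc finger gene that lies 58.5 kb after LRRC8D, was 0.35 higher with CDH2 shRNA (SE 0.07, limma adjusted p 0.0371, below the fold threshold) and differed by 0.03 with Cx43 shRNA (SE 0.09, limma adjusted p 0.853). Among the genes with values around the cluster, those farther from LRRC8B than GBP5 ran from -0.51 (GBP2) to 0.53 (PKN2) with CDH2 shRNA. Next to CLIC3, PAXX at 0.6 kb, a DNA repair gene, differed by -0.17 (limma adjusted p 0.519) and 0.09 (limma adjusted p 0.838). ABCA2, a lipid transporter gene at 10.7 kb on the other side, differed by -0.10 (limma adjusted p 0.79) and 0.73 (limma adjusted p 0.217). Neither passed in the fit of all libraries. Over all genes, 31.4% had every Cx43 library above every scramble library. Every Cx43 library of ABCA2 lay above every scramble library, and the adjusted p with Cx43 shRNA ranged from 9.32e-06 with only the groups compared, through 0.00308 without scramble replicate 3 or CDH2 replicate 3, to 0.705.

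**Figure D4:**
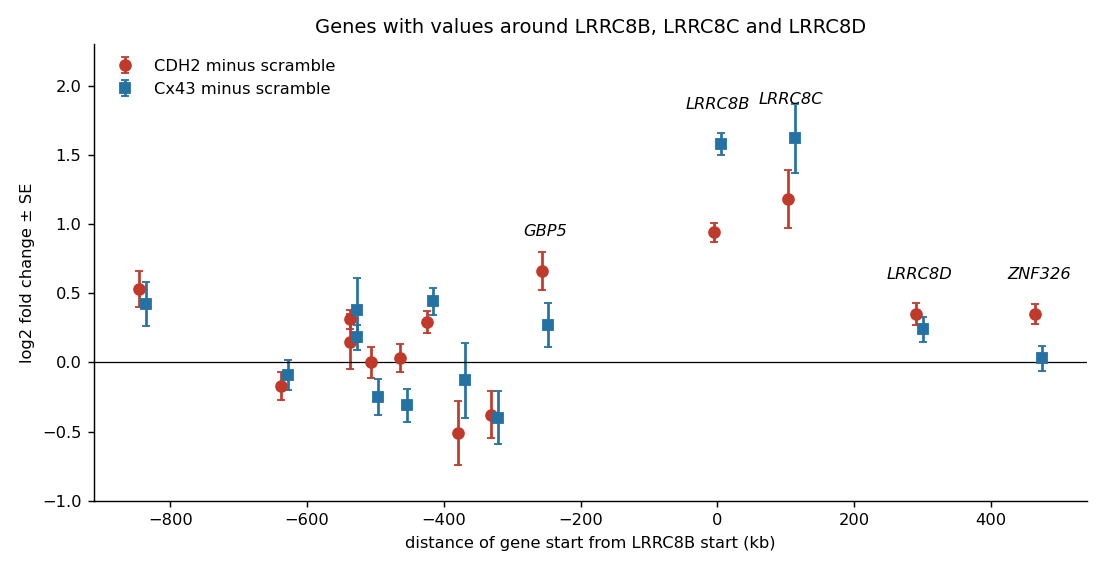
log2 fold change with its standard error for the genes with values around the LRRC8B, LRRC8C and LRRC8D cluster, against the distance of the gene start from that of LRRC8B in kb (CDH2 shRNA circles, Cx43 shRNA squares). LRRC8B and LRRC8C stand above all other genes plotted in both knockdowns, and LRRC8D lies at 0.35 and 0.24.

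Reads can be shared with overlapping genes or copies. LRRC8A overlaps KYAT1 on the opposite strand, and CLIC1 overlaps DDAH2 on the same strand and MSH5 on the opposite strand, all with values, and whether the counting used the strand is not given in the sources used here. LRRC8B overlaps the protein-coding gene ENSG00000288629 on the same strand, and LRRC8C-DT and ENSG00000286548 on the opposite strand. LRRC8C overlaps ENSG00000230735 on the same strand, and LRRC8C and LRRC8D share the annotated gene ENSG00000271949 on their strand. None of these overlapping genes had values here. The 75-base stretches of annotated transcripts were compared only among the 8 genes and the CLIC pseudogenes with values. Of those of the LRRC8 genes and of CLIC3, 0 occurred in another gene of this set. The rest of the annotation, with the overlapping genes, was not searched. For CLIC1 1.57% and for CLIC4 3.49% were shared, mainly with the processed pseudogenes CLIC1P1 and CLIC4P1, so these values are less certain. CLIC4P1, of whose stretches 25.2% were shared, measured 2.72, 2.51 and 2.92 with scramble shRNA, 2.80, 2.96 and 2.57 with CDH2 shRNA, and 2.67 and 2.71 with Cx43 shRNA, in the same order within each group as CLIC4.

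The genes most like LRRC8B over the 8 libraries were LIN9 (Pearson r 0.999), CNOT7 (0.996), MCOLN2 (0.996), TMEM64 (0.996) and CELF2 (0.994). LRRC8C ranked 219 with r 0.943. LIN9, a cell cycle transcription regulator, measured 3.95 in each scramble library, 4.17, 4.20 and 4.18 with CDH2 shRNA and 4.36 and 4.33 with Cx43 shRNA, in the same steps as LRRC8B but over a smaller range. CELF2, an RNA binding protein gene, measured 1.83 in each scramble library, 2.53, 2.55 and 2.54 with CDH2 shRNA and 2.86 and 2.84 with Cx43 shRNA. Like LRRC8B, CELF2 has values here only through its higher knockdown libraries. The genes most like CLIC3 were GLB1L (0.999), PLCD3 (0.999), IFT52 (0.999), GSN (0.997) and SLC29A3 (0.996). GSN, the actin-severing protein gelsolin, measured 6.18, 6.16 and 6.19 with scramble shRNA, 5.81, 5.75 and 5.76 with CDH2 shRNA and 5.78 and 5.87 with Cx43 shRNA. These correlations describe 8 libraries that fall into 3 groups and share the constraint on their replicate numbers, so high values of r are easily reached.

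Of 110 symbols of other chloride channels, chloride cotransporters, osmolyte and water handling, CLIC partners and platinum transport, 64 had values. The lists were chosen with earlier results of these data known. The p-values of list genes below are therefore descriptions and no independent test. With CDH2 shRNA 2 rose and 1 fell past the threshold, with Cx43 shRNA 0 rose and 1 fell, and in the direct contrast 0 passed. Over all genes, 0.866% rose and 1.2% fell with CDH2 shRNA, 0.402% rose and 0.781% fell with Cx43 shRNA, and 0% passed in the direct contrast. The median difference over the 64 was 0.02 with CDH2 shRNA and 0.00 with Cx43 shRNA, and over all genes 0.01 and 0.04. CLIC2, CLIC5 and CLIC6 had no values here.

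In the ClC family, the chloride channels and chloride-proton exchangers of plasma membrane and endosomes, 7 of 11 had values, and 1 rose with CDH2 shRNA and 0 passed with Cx43 shRNA. CLCN5, an endosomal chloride-proton exchanger, measured 3.20, 3.16 and 3.30 with scramble shRNA, 3.87, 4.44 and 4.03 with CDH2 shRNA, and 3.28 and 2.74 with Cx43 shRNA. It rose by 0.90 with CDH2 shRNA (SE 0.21, limma adjusted p 0.0434) and differed by -0.21 with Cx43 shRNA (SE 0.24, limma adjusted p 0.657). The direct difference was 1.10 (SE 0.24, limma adjusted p 0.134), which did not pass. Over the alternatives the adjusted p with CDH2 shRNA ranged from 0.0022 to 0.167. Among the other anion channels 15 of 41 symbols had values and 0 passed the threshold. PACC1 and TMEM206, both among the 41, name the same gene, which had values. GPR89B, which encodes a Golgi anion channel and has a near-identical copy, GPR89A, was 0.35 higher with CDH2 shRNA (SE 0.07, limma adjusted p 0.0356, below the fold threshold) and 0.52 higher with Cx43 shRNA (SE 0.08, limma adjusted p 0.0552). GPR89A differed by -0.04 with CDH2 shRNA and by -0.01 with Cx43 shRNA, and how reads were divided between the copies was not tested.

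Among the chloride cotransporters and the kinases that control them 13 of 17 had values. WNK3, a kinase that turns on chloride uptake when chloride or volume falls, rose by 0.75 with CDH2 shRNA (SE 0.17, limma adjusted p 0.0406) and differed by 0.29 with Cx43 shRNA (SE 0.19, limma adjusted p 0.431). Its libraries ran from 3.15 to 3.60 with scramble shRNA, from 3.90 to 4.33 with CDH2 shRNA and from 3.65 to 3.68 with Cx43 shRNA, and its adjusted p with CDH2 shRNA ranged from 0.000293 to 0.176 over the alternatives. SLC12A7, a potassium-chloride cotransporter gene named here after its values were seen, had the largest difference on the list, 1.47 with CDH2 shRNA, and did not pass. In the osmolyte and water list 10 of 14 had values. NFAT5, named here after its values were seen, had the largest difference with CDH2 shRNA, 0.90, and -0.09 with Cx43 shRNA. KCNN4, likewise named, had the largest with Cx43 shRNA, -0.74, and -0.42 with CDH2 shRNA. Neither passed the threshold. AKR1B1, aldose reductase, which makes the osmolyte sorbitol, fell in both knockdowns. It measured 7.22, 7.23 and 7.21 with scramble shRNA, 6.40, 6.45 and 6.43 with CDH2 shRNA, and 6.67 and 6.60 with Cx43 shRNA. It fell by 0.79 with CDH2 shRNA (SE 0.07, limma adjusted p 0.016) and by 0.59 with Cx43 shRNA (SE 0.09, limma adjusted p 0.0466), and over the alternatives these p-values ranged from 0.000138 to 0.105 and from 0.000604 to 0.496.

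Among the CLIC partners and relatives 11 of 13 symbols had values and 0 passed the threshold. NHERF1 and SLC9A3R1, both among the 13, name the same gene, which had values. AKAP12, a scaffold protein gene, was 0.47 higher with CDH2 shRNA (SE 0.10, limma adjusted p 0.0371, below the fold threshold) and differed by -0.23 with Cx43 shRNA (SE 0.12, limma adjusted p 0.302). Of the platinum uptake and export genes 8 of 11 had values and 0 passed. COX17, a copper chaperone gene, had the smallest adjusted p among them, with -0.65 with CDH2 shRNA (SE 0.13, limma adjusted p 0.0339, below the fold threshold) and -0.23 with Cx43 shRNA (SE 0.15, limma adjusted p 0.424). It passed with CDH2 shRNA without scramble replicate 3 or CDH2 replicate 3 (-0.81, limma adjusted p 0.000595).

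**Figure D5:**
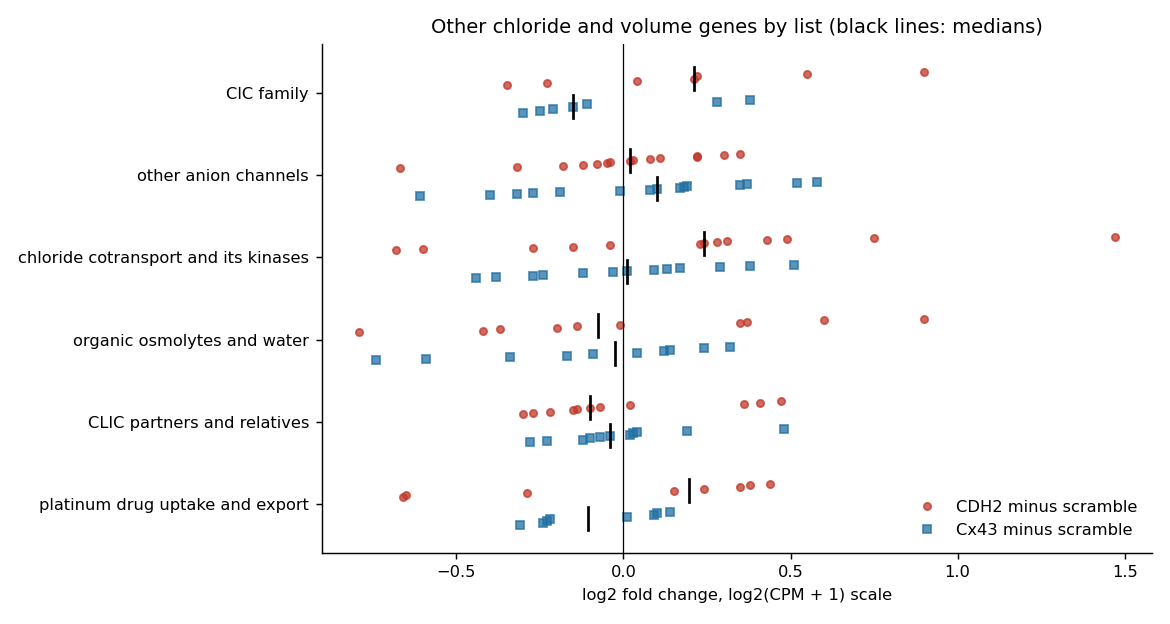
log2 fold change of the genes with values on each of 6 lists, for CDH2 shRNA (circles) and Cx43 shRNA (squares) against scramble shRNA, with the median of each list as a black line. The medians lie between -0.15 and 0.24, and values spread to both sides of 0 on every list.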

How the data were processed

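RNA-Seq values were used for 8 libraries of sorted CSCs, grouped by the labels. According to the methods, ribosomal RNA was depleted and single-end reads were aligned to hg38 with STAR (version 2.6.1 per the submitters' processing notes) in Partek Flow, and 1 low-quality sample was removed. The authors scaled the reads to CPM, took logs, corrected for a batch effect between 3 sequencing replicates and filtered out genes whose highest library was low. The values they deposited are on a log2(CPM + 1) scale. Turned back with base 2, they sum to between 684411 and 727083 CPM in a library. The annotation the authors used is not given in the sources used here. There are no counts, and low values do not repeat as whole reads would make them (of the 500 lowest in a library, 496 or more are distinct), so the depth is unknown and the number of libraries sets the precision. 1 line without a gene name was left out.

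The members and lists were chosen with earlier results of these data known. limma 3.58.1 (R 4.3.3; lmFit and eBayes) was run on all 12939 genes in 1 model with the group and the replicate number as a block, since in each replicate number, as the labels give it, the libraries' deviations from their group means cancel to within 1e-04, which pairs them. That these numbers are the sequencing replicates of the authors' correction is not stated in the sources used here. Residual degrees of freedom were 3, and limma's prior added 2.84. Two-sided p-values were adjusted by the Benjamini-Hochberg method over all genes. The threshold was the one in the study's methods, an adjusted p under 0.05 with a log2 difference of at least 0.73 (CDH2 shRNA versus scramble) or 0.58 (Cx43 shRNA versus scramble), and 0.58 also for CDH2 versus Cx43 shRNA. No set test was run.

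The genes named are the 8 members, list genes past threshold in any comparison or else the gene of a list with the smallest adjusted p, the nearest genes with values within 500 kb of LRRC8B, LRRC8C, LRRC8D and CLIC3, and the 5 genes with the highest Pearson r to LRRC8B and CLIC3. SLC12A7, NFAT5 and KCNN4 were named besides, after their values were seen. Positions and exon lengths are from GENCODE v44, promoters from RefSeq. The settings tried besides were a fit with no replicate block, a mean-variance trend, values centred on the median or quantile-normalized, the 75% of genes with the highest mean, a pseudocount of 0.1, only the groups compared, a fold change of 1.5, the longest transcript as length, and leaving out each library.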

Additional observations from a re-analysis of the deposited data

Results flagged for a closer look

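AKAP12, a scaffold protein gene on the list of CLIC partners, lay on opposite sides of the scramble libraries in the knockdowns. Its libraries ran from 4.43 to 4.58 with scramble shRNA, from 4.89 to 5.10 with CDH2 shRNA, and measured 4.32 and 4.21 with Cx43 shRNA. Every CDH2 library lay above all scramble libraries, as for 27.1% of all genes. Every Cx43 library lay below them, as for 21.4% of all genes. The difference of CDH2 from Cx43 shRNA was 0.71 on the log2 scale (SE 0.12, limma adjusted p 0.115), which is not past the threshold, and its adjusted p ranged from 0.00332 to 0.678 over the alternatives. Groups of 2 and 3 libraries are too small for a search for single outlying libraries.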

How the results depend on the processing

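The differences from scramble of LRRC8B, LRRC8C, CLIC3, CLCN5, WNK3 and AKR1B1 that were past the threshold kept their sign under each setting run. Small ones crossed 0 with a library left out, with Cx43 shRNA LRRC8A (-0.04 to 0.17), CLIC1 (-0.19 to 0.03) and CLIC4 (-0.15 to 0.27), with CDH2 shRNA CLIC4 (-0.01 to 0.50), and in the direct contrast LRRC8A, CLIC3 and CLIC4. Of the differences of the 8 genes from scramble shRNA, 108 of 128 values with a library left out and 101 of 108 under the other settings moved by less than the spread between replicates. Of their CDH2 versus Cx43 differences 59 of 64 and 51 of 54 stayed on the same side of the threshold, and the others passed it. LRRC8B ranged from 0.91 to 1.22 with CDH2 shRNA and from 1.54 to 1.96 with Cx43 shRNA, LRRC8C from 0.88 to 1.42 and from 1.40 to 1.93, and CLIC3 from -1.15 to -0.91 and from -1.13 to -0.77.

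Counts of genes past the threshold depended on the setting, and the causes were not tested. For CDH2 shRNA 267 genes became 150 with the 75% of genes with the highest mean, 0 with only the groups compared, 605 at a fold change of 1.5, and 0 to 723 with a library left out. For Cx43 shRNA 153 became 532 with no replicate block, 4 with the filter, 741 with only the groups compared and 0 to 730 with a library left out. For CDH2 versus Cx43 shRNA 0 (2591 with an unadjusted p under 0.05) became 360 with no replicate block, 414 with only the groups compared and 0 to 545 with a library left out. Of the list genes, 3 for CDH2 shRNA became 5 with no replicate block, 0 with only the groups compared and 0 to 9 with a library left out, 1 for Cx43 shRNA became 3, 5 and 0 to 5 (0 with the filter or the pseudocount), and 0 in the direct contrast became 6, 6 and 0 to 7. Of the 8 genes, as a description of the genes chosen on these contrasts, 3 for CDH2 shRNA became 1 with the filter, which leaves out LRRC8B and CLIC3 as low, 0 with only the groups compared and 0 to 3 with a library left out. For Cx43 shRNA 2 became 0 with the filter and 0 to 3 with a library left out, and in the direct contrast 0 became 1 with no replicate block, 2 with only the groups compared and 0 to 2 with a library left out.

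Members and list genes past the threshold with CDH2 shRNA fell to 0 without scramble replicate 1, CDH2 replicate 1 or 2, or Cx43 replicate 1 or 2. Leaving out Cx43 libraries leaves 1 in that group, assumed to vary like the others. Leaving out scramble replicate 3 or CDH2 replicate 3 gives the same fit, since the block takes up the library left alone. With the longest transcript as length, the share of LRRC8C in the family was 2.16%, 4.18% and 5.96%. The shares come from no fit, so the fitting settings do not apply to them. The unknown depth and 2 or 3 libraries a group limit the precision.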
